A study of Mus musculus with 12 samples.

Results

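The receptors for hepatocyte growth factor (HGF) and for ciliary neurotrophic factor (CNTF) and leukaemia inhibitory factor (LIF) were followed in sorted cells of the embryonic mouse spinal cord. The 5 genes were taken by symbol, Met, Hgf, Lifr, Cntfr and Il6st, and all 5 were found among the 30740 symbols of the deposited table. Cells came from dissociated ventral spinal cord of CB6F1/J embryos at embryonic stage E12.5 and were sorted on Hb9:GFP, a transgene in which the motor neuron promoter of Mnx1 (Hb9) drives green fluorescent protein (GFP). The 12 libraries comprised 5 GFP-positive and 1 GFP-negative library from Arhgap35 knockout (KO) embryos, and 5 GFP-positive and 1 GFP-negative library from control littermates. Every embryo therefore carried the reporter, tissue was pooled before the sort, and the controls could be wild-type or heterozygous for the deletion according to the protocol, although their labels read wild type. GFP-negative samples carry a motor neuron label as well, and they were grouped here by the sort.

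HGF is a secreted protein that activates the receptor tyrosine kinase Met, which recruits the adaptors Gab1 and Grb2 and promotes survival and axon growth of subsets of spinal motor neurons, with limb mesenchyme as a known source of the ligand. CNTF binds Cntfr, a receptor held at the membrane by a lipid anchor with no signalling domain of its own, and the complex then draws in Lifr and Il6st (gp130), the chains that signal through Jak kinases and Stat3. LIF needs Lifr and Il6st without Cntfr, and mice lacking Cntfr or Lifr are known to lose motor neurons before birth.

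On GRCm38, GENCODE places Met at 17463800 to 17573980 of chromosome 6, Hgf at 16553495 to 16620152 of chromosome 5, Lifr at 7090614 to 7197489 of chromosome 15 and Il6st at 112464070 to 112510086 of chromosome 13, all on the plus strand. Cntfr lies on the minus strand of chromosome 4, at 41657498 to 41697089.

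The start regions of the 4 receptor genes are given because these 4 genes were all higher in GFP-positive cells. Each is a RefSeq window on GRCm38.p6 of 250 bases before and 50 bases after an annotated start, read 5′ to 3′ on the strand of the gene. RefSeq listed 12 such windows for the 5 genes (6 for Cntfr, 2 each for Lifr and Hgf, 1 each for Met and Il6st), and the first listed is shown for each receptor. The intervals are chr6:17463707-17464006 on the plus strand for Met, chr13:112463820-112464119 on the plus strand for Il6st, chr15:7129322-7129621 on the plus strand for Lifr and chr4:41695404-41695703 on the minus strand for Cntfr. Capitals mark the GC box (GGGCGG) and the CCAAT box (CCAAT), both searched on both strands.
Met: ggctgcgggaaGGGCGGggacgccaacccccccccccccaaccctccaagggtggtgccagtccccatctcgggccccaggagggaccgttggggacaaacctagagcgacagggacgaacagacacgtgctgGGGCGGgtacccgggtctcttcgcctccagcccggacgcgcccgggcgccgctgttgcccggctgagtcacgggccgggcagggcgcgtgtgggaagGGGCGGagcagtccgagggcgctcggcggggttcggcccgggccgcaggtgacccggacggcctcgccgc
Il6st: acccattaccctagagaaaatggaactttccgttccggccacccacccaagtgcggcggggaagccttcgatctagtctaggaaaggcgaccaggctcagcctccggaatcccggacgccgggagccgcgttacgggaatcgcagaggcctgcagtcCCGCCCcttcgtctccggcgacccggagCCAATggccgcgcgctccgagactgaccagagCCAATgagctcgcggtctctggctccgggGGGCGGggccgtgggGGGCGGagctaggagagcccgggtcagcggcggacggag
Lifr: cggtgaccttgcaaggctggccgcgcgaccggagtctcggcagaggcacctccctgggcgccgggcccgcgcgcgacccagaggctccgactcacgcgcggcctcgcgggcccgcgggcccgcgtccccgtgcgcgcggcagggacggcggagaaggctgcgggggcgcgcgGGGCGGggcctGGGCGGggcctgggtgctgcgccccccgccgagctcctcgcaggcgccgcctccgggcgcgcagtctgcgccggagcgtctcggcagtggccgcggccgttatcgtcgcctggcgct
Cntfr: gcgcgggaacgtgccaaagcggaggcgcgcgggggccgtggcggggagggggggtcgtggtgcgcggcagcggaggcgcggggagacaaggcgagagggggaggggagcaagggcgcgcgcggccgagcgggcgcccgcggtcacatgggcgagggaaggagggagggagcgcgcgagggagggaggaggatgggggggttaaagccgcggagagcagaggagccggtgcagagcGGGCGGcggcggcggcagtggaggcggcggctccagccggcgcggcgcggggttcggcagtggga

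All 4 windows held the GC box, with 3 matches in Met, 3 in Il6st, 2 in Lifr and 1 in Cntfr, and 35.7% of 32851 mouse windows of the same length held at least 1. In the same order the windows were 75.7%, 68.3%, 81.3% and 78.7% G or C. The share among windows equally rich in G and C was not tested. Il6st also held 2 matches to the CCAAT box, which 37.4% of windows held. None of the 4 held the TATA box (TATAAA, 13.6% of windows), the Stat motif (TTCNNNGAA, 8.30%) or the homeodomain motif (TAATTA, 5.29%). The windows not printed differed, as the other Lifr window held 2 matches to the CCAAT box and none to the GC box, and the sixth Cntfr window held 1 match to the homeodomain motif and none to the GC box. The second Cntfr window held no match to any of these motifs. A match is a description of letters, and no match says only that these letters are absent from these bases.

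Total estimated counts were 24.6 to 33.8 M per KO and 23.7 to 30.2 M per control GFP-positive library, with 26.5 M for the KO and 28.7 M for the control GFP-negative library. Levels of 1 gene across libraries are given as counts-per-million values (CPM, on library sizes scaled by TMM), and levels between genes as transcripts-per-million values (TPM), which allow for length. Mnx1 marked the sort, at 230 to 315 CPM in GFP-positive libraries against 0.438 and 0.508 CPM in the KO and control GFP-negative libraries. Arhgap35, the targeted gene, stood at 96.8 ± 7.84 CPM in KO and 173 ± 25.6 CPM in control GFP-positive cells (SD, n = 5 each), with no overlap (log2 fold change -0.83, edgeR adjusted p = 0.0240), and its adjusted p was 0.162 in the blocked fit, which has the replicate number as a term. Its older symbol Grlf1, a separate entry looked at after its values were seen, was listed at 0 to 8.33 CPM in KO and 23.6 to 72.0 CPM in control GFP-positive libraries. No label ties replicates to separate litters, and p-values therefore reflect only the spread among the libraries. In the fits between the fractions, that spread and the intervals come mostly from the GFP-positive libraries. Each genotype has 1 GFP-negative library, which is assumed to vary like them.

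Met was the receptor gene with the largest difference between the sorted fractions. It had 82.9, 82.0, 93.6, 81.2 and 81.1 CPM in the 5 KO GFP-positive libraries, and 82.2, 82.1, 87.1, 79.6 and 83.9 CPM in the 5 control GFP-positive libraries. It had 13.1 CPM in the KO and 14.4 CPM in the control GFP-negative library, with exact binomial 95% intervals of 11.8 to 14.5 and 13.1 to 15.8 CPM that cover counting error only. The 10 GFP-positive libraries thus lay in a narrow band, and the lowest of them was 5.53 times the higher GFP-negative one. The fitted difference was 6.08-fold (95% confidence interval 5.47 to 6.76; log2 fold change 2.60 with a standard error of 0.0706, edgeR adjusted p = 1.67e-11), and 3.16% of the 19763 genes tested had a larger fold.

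Il6st, the signalling chain shared by CNTF, LIF and most other ligands of the interleukin-6 family, was also far higher in GFP-positive cells. Its KO GFP-positive libraries had 260.8, 240.4, 269.7, 264.3 and 255.2 CPM, and its control GFP-positive libraries had 239.9, 270.5, 264.1, 256.1 and 270.3 CPM. The KO and control GFP-negative libraries had 58.2 and 54.9 CPM. No GFP-positive library came near these, the lowest being 4.12 times the higher GFP-negative value. The fitted difference was 4.58-fold (95% confidence interval 4.18 to 5.02; log2 fold change 2.20 with a standard error of 0.0607, edgeR adjusted p = 1.95e-11).

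Lifr, the partner chain of Il6st for LIF and CNTF, varied most among the GFP-positive libraries. It had 76.9, 83.4, 96.7, 88.1 and 102.8 CPM in the KO GFP-positive libraries, and 73.1, 89.3, 97.3, 89.8 and 96.2 CPM in the control GFP-positive libraries. The KO and control GFP-negative libraries had 25.6 and 21.9 CPM. All 10 GFP-positive values were higher, by 3.76-fold in the fit (95% confidence interval 3.08 to 4.60; log2 fold change 1.91 with a standard error of 0.132, edgeR adjusted p = 8.55e-08). Both GFP-negative libraries carry replicate number 1, whose GFP-positive libraries had the lowest Lifr of their groups, and the log2 fold change was 1.66 in the blocked fit. Within number 1, GFP-positive over GFP-negative was 3.00 in KO and 3.33 in control cells.

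Cntfr, the subunit that confers CNTF binding, was nearly as high in GFP-negative as in GFP-positive cells. It had 170.9, 163.0, 173.1, 172.3 and 171.7 CPM in the KO GFP-positive libraries, and 177.1, 153.4, 172.4, 163.9 and 160.0 CPM in the control GFP-positive libraries. The KO and control GFP-negative libraries had 125.4 and 128.5 CPM. The lowest GFP-positive library was still 1.19 times the higher GFP-negative one, and the fitted difference was 1.32-fold (95% confidence interval 1.23 to 1.42; log2 fold change 0.40 with a standard error of 0.0501, edgeR adjusted p = 8.94e-06). A larger fold was found for 30.4% of all genes tested.

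Hgf, the ligand, was at the edge of detection in both fractions. It had 6, 3, 2, 6 and 4 estimated counts in the KO GFP-positive libraries, 1, 1, 2, 3 and 4 in the control GFP-positive libraries, and 1 in each GFP-negative library. Most of these lie at or under a floor of 3 counts, which equals 0.0890 to 0.127 CPM by library, so Hgf failed the filter on low counts and no fold between the fractions is given. The sums were 21 counts in KO and 11 counts in control GFP-positive cells, a depth-scaled ratio of 1.74 with a counting interval of 0.803 to 4.00. Its CPM overlapped between the genotypes (exact two-sided permutation p = 0.127, or 0.635 adjusted over 5 tests). The smallest possible p is 0.00794, and the test took no account of the replicate number. Of its 7186 exonic bases, 484 are shared with the model Gm43489 on the same strand.

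**Figure D1:**
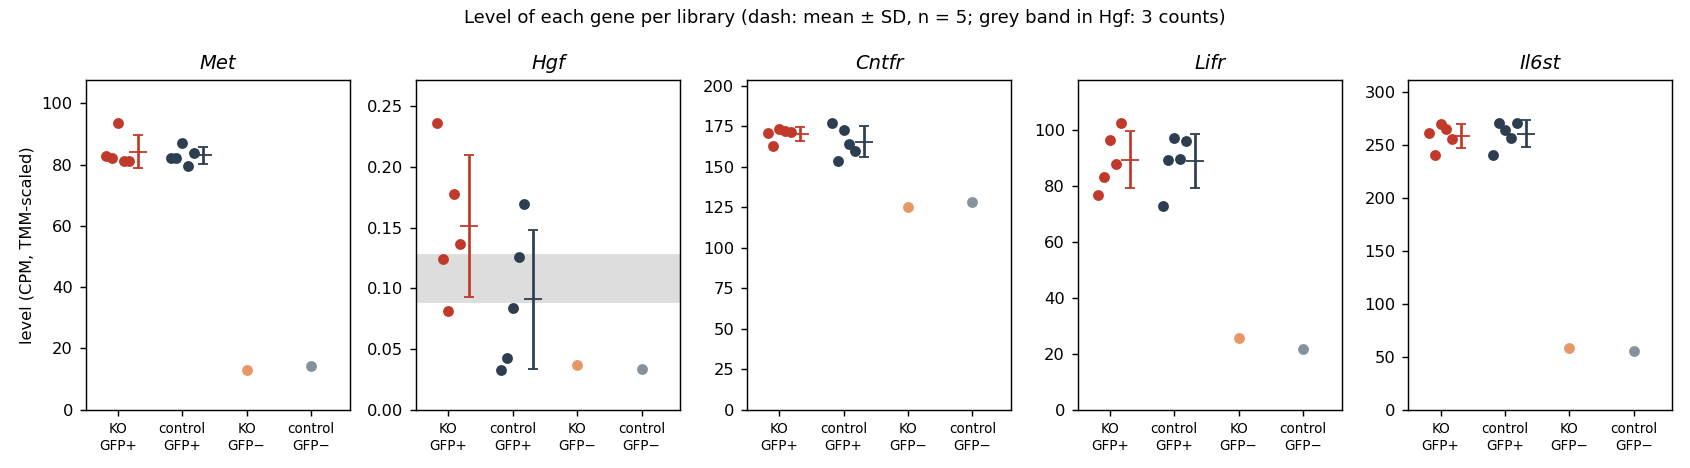
Level of each gene in CPM (vertical axes, from 0) in each library, by genotype and sort, with bars for the mean and SD over 5 libraries; the grey band in the Hgf panel spans 3 counts in the libraries. Met, Lifr and Il6st were well separated between GFP-positive and GFP-negative cells, Cntfr by a small margin, and KO and control values overlapped for all 5 genes.

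In the comparison of GFP-positive with GFP-negative cells, all 4 receptor genes that could be tested were called higher, and Hgf was not tested. Of all genes tested, 30.1% were called higher, 31.8% lower and 61.9% in either direction. The 10 GFP-positive libraries all lay above both GFP-negative libraries for the same 4 genes, as they did for 29.1% of genes. Met, Il6st and Lifr rose by a log2 fold change of at least 1, which 12.4% of genes did. The median log2 fold change of the 4 was 2.05, against 0.018 over all genes. In bulk libraries, more cells with a transcript and more transcript per cell cannot be told apart.

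Markers of several other cell types were lower in GFP-positive cells. The 8 motor neuron markers summed to 1551 to 1916 CPM in KO and 1480 to 1942 CPM in control GFP-positive libraries, and to 48.0 and 50.7 CPM in the KO and control GFP-negative libraries. The 9 progenitor and radial glia markers were all lower in GFP-positive cells, summing to 422 to 523 CPM in KO and 409 to 549 CPM in control GFP-positive libraries, against 2310 and 2061 CPM in the KO and control GFP-negative libraries. Ventral interneuron markers summed to 40.7 to 120 CPM in KO and 36.0 to 166 CPM in control GFP-positive libraries, against 615 and 688 CPM in the KO and control GFP-negative libraries. In the same order, dorsal interneuron markers summed to 14.5 to 54.3 and 14.6 to 73.7 CPM, against 391 and 430 CPM. Sensory ganglion markers summed to 23.9 to 45.1 and 25.6 to 45.8 CPM, against 142 and 156 CPM, but of 6 tested 2 were lower and 1 higher (median -0.36 on the log2 scale). Muscle precursor markers summed to 1.22 to 6.27 and 0.920 to 9.27 CPM, against 136 and 131 CPM, but 3 of the 6 were at 0 in each GFP-negative library. Of the 3 muscle precursor markers tested, 2 were lower, so this sum rests on part of the list and does not identify muscle cells. Mesenchyme markers summed to 4.06 to 15.9 and 5.35 to 8.51 CPM, against 33.9 and 33.7 CPM, and endothelial markers to 2.26 to 14.9 and 2.13 to 5.79 CPM, against 11.8 and 8.74 CPM, with 3 of 7 endothelial markers lower and the sums of the fractions overlapping. Erythroid markers summed to 2.49 to 27.8 and 2.93 to 9.94 CPM, against 152 and 112 CPM, and macrophage markers to 1.39 to 3.09 and 0.755 to 2.97 CPM, against 9.71 and 10.8 CPM. No marker of the 10 lists was at 0 in all GFP-positive libraries. Thus progenitor and interneuron markers made up more of the GFP-negative libraries, and their part in the differences of the receptor genes was not tested.

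**Figure D2:**
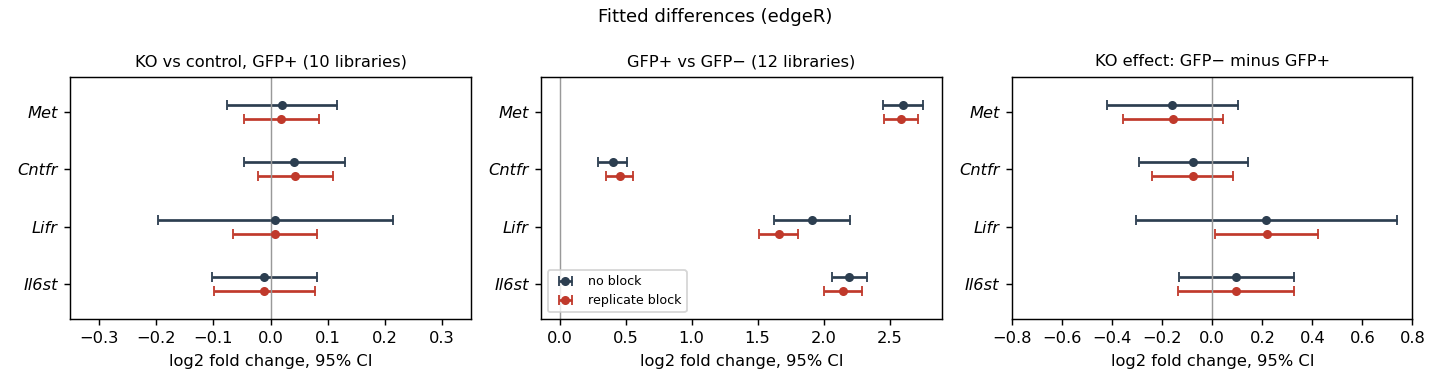
Log2 fold changes with 95% confidence intervals (horizontal axes) from edgeR for the 4 receptor genes tested, for KO over control in GFP-positive cells, GFP-positive over GFP-negative cells, and the KO effect of GFP-negative cells less that of GFP-positive cells, without and with the replicate block. The genotype intervals all span 0, and those of the sort all lie above it, from 0.40 for Cntfr to 2.60 for Met without the block.

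The comparison of KO with control GFP-positive cells asks whether loss of Arhgap35 changes the survival receptors of motor neurons at this stage. None of the 4 receptor genes tested was called by edgeR, and 0.0343% of 17487 genes were. At an unadjusted p under 0.05, 2.14% of all genes passed and none of the 4 did, and DESeq2 and limma-voom called none of the 4 either. KO and control values overlapped for all 5 genes, while 0.538% of genes had groups that did not.

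The intervals bound how large a difference could have been missed. Met averaged 84.1 ± 5.35 CPM in KO and 83.0 ± 2.79 CPM in control cells (SD, n = 5 each). The log2 fold change was 0.02 (95% confidence interval -0.08 to 0.12, or 0.948- to 1.08-fold) and the edgeR adjusted p was 0.9999, as for the other 3 genes. Il6st averaged 258 ± 11.2 CPM in KO and 260 ± 12.8 CPM in control cells (SD, n = 5 each), with a fold interval of 0.931 to 1.06. Cntfr averaged 170 ± 4.12 CPM in KO and 165 ± 9.53 CPM in control cells (SD, n = 5 each), with a fold interval of 0.969 to 1.09.

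Lifr was the least precisely bounded of the 4. It averaged 89.6 ± 10.3 CPM in KO and 89.1 ± 9.69 CPM in control cells (SD, n = 5 each), with a fold interval of 0.872 to 1.16. Much of that spread followed the replicate number, since the mean of the KO and control libraries of a number was 75.0, 86.3, 97.0, 88.9 and 99.5 CPM for numbers 1 to 5. In the blocked fit, the standard error of the Lifr log2 fold change was 0.0330, against 0.0932 without it, and its 95% confidence interval was -0.07 to 0.08. The KO library exceeded the control library of the same number in 3 of 5 pairs for Met, 3 for Hgf, 2 for Lifr, 4 for Cntfr and 3 for Il6st.

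**Figure D3:**
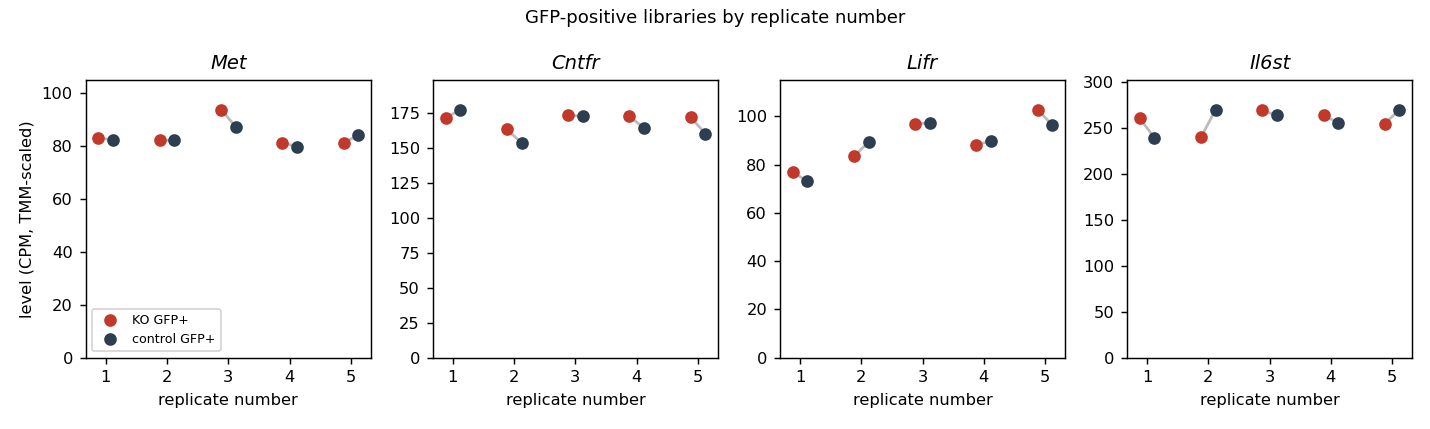
CPM of Met, Cntfr, Lifr and Il6st (vertical axes, from 0) in the KO and control GFP-positive libraries of each replicate number (horizontal axes), joined by a line. Lifr differed more between numbers than between genotypes, from 75.0 CPM as the mean of number 1 to 99.5 CPM as the mean of number 5.

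Variation among the 10 GFP-positive libraries set Lifr apart from the other receptor genes as a description. Its coefficient of variation was 10.6%, above that of 90.8% of the 6468 genes with a mean log2 CPM of at least 5. Met, Cntfr and Il6st had coefficients of 4.87%, 4.40% and 4.39%, against a median of 5.01% for those genes.

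The KO effect in GFP-negative cells rests on 1 library of each genotype, which the fit assumes to vary like the replicated groups. None of the 4 receptor genes had a KO effect that differed between GFP-negative and GFP-positive cells by edgeR (adjusted p = 0.99997 for each), where 0.0253% of genes did. The difference of effects was -0.16 for Met (95% confidence interval -0.42 to 0.10), 0.22 for Lifr (-0.31 to 0.74), -0.077 for Cntfr (-0.29 to 0.14) and 0.095 for Il6st (-0.13 to 0.33), all on the log2 scale. With the replicate block, Lifr had an unadjusted p of 0.0400 (interval 0.01 to 0.42) and an edgeR adjusted p of 1.

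On the TPM scale, which allows levels of different genes to be compared, the 5 genes had the same order in all 10 GFP-positive libraries. Cntfr came highest at 182 to 211 TPM, then Il6st at 85.4 to 94.5 TPM, Met at 29.0 to 34.4 TPM, Lifr at 17.2 to 24.0 TPM and Hgf at 0.0289 to 0.207 TPM. No range overlapped its neighbour's. In the KO and control GFP-negative libraries, Cntfr had 143 and 148 TPM, Il6st had 19.5 and 19.1 TPM, and Hgf had 0.0309 and 0.0356 TPM. Met had 5.61 and 5.37 TPM there and Lifr 5.72 and 4.97 TPM, so the order of these 2 genes was not the same in both libraries. Among genes with a mean of at least 1 TPM, Cntfr exceeded 94.8% in GFP-positive and 92.2% in GFP-negative cells, Il6st 85.4% and 49.98%, Met 61.7% and 27.1%, and Lifr 52.5% and 26.6%.

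The proportions of the transcripts of the CNTF receptor subunits differed between the fractions, and protein was not measured. Cntfr was 2.20 times Il6st in TPM on average in GFP-positive libraries (range 1.93 to 2.47), against 7.33 and 7.74 times in the KO and control GFP-negative libraries. Cntfr was 9.59 times Lifr in GFP-positive libraries (range 8.35 to 12.2), against 25.0 and 29.8 times in the KO and control GFP-negative libraries. Neither ratio overlapped between the fractions. The two-sided exact permutation p was 0.0152 for each, the smallest that 10 against 2 libraries allow, or 0.0202 adjusted over 4 ratios. All 4 ratios are built from genes whose folds between the fractions are given above. Their p-values are therefore no separate support for a difference. Leaving out either GFP-negative library gave p = 0.0909 in the exact permutation test for both ratios, the smallest that 10 against 1 allow. Within replicate number 1, which both GFP-negative libraries carry, Cntfr to Lifr was 11.2 in KO and 12.2 in control GFP-positive libraries, the highest of their groups.

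Met was 1.48 times Lifr in GFP-positive libraries (range 1.26 to 1.77), against 0.982 and 1.08 times in the KO and control GFP-negative libraries (exact two-sided permutation p = 0.0152, or 0.0202 adjusted over 4 ratios; p = 0.0909 without either GFP-negative library). Il6st to Lifr, the ratio of the signalling chains, was 4.35 in GFP-positive libraries (range 3.71 to 4.98), against 3.42 and 3.86 in the KO and control GFP-negative libraries. These values overlapped, and the p of 0.0455 (two-sided exact permutation, adjusted p = 0.0455) was lost on leaving out most single libraries, with values of up to 0.364. Within replicate number 1 this ratio was 4.98 in the GFP-positive against 3.42 in the GFP-negative KO library, and 4.95 in the GFP-positive against 3.86 in the GFP-negative control library. The overlap lay in KO GFP-positive replicate 5, at 3.71. Number 1 had the lowest Lifr of each GFP-positive group, which raises this ratio there. Between KO and control GFP-positive cells the ratios Cntfr to Il6st, Cntfr to Lifr, Il6st to Lifr and Met to Lifr had exact two-sided permutation p-values of 0.421, 0.770, 0.889 and 0.817 (0.889 for each after adjustment over 5 tests). These tests took no account of the replicate number, so spread between numbers enters them. Cntfr to Lifr, for example, was 11.2 in KO and 12.2 in control cells of number 1, and 8.38 and 8.35 in number 5.

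**Figure D4:**
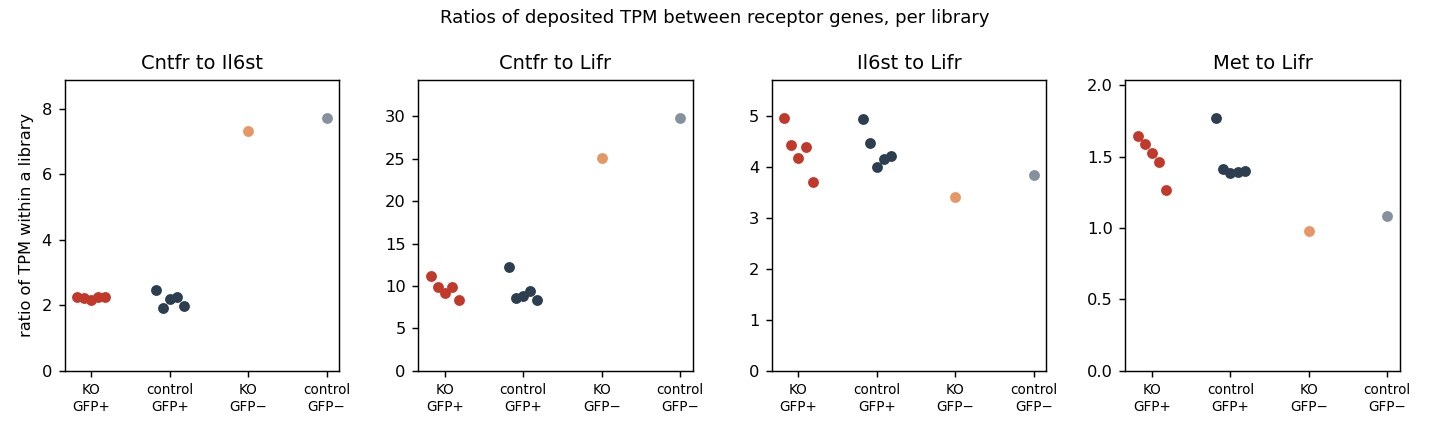
Ratio of deposited TPM between pairs of receptor genes (vertical axes, from 0) in each library, by genotype and sort. Cntfr to Il6st was 1.93 to 2.47 in GFP-positive and 7.33 and 7.74 in the KO and control GFP-negative libraries, whereas Il6st to Lifr overlapped between the fractions.

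The other genes of both pathways were counted in 8 lists of 87 genes, of which 85 were in the table. Without the 5 genes above, 75 were tested between the fractions, and 33 were higher, 22 lower and 20 not called in GFP-positive cells. Over all genes, 30.1% were called higher, 31.8% lower and 61.9% in either direction. The counts of each list below are to be read beside these shares. In the blocked fit, 48 of the 75 were called, beside 55.6% of all genes. The calls differed in direction between the lists, and the part of the markers above in these differences was not tested. Between KO and control GFP-positive cells, 68 genes of the lists were tested, again without the 5 genes above, and none was called by edgeR, DESeq2 or limma-voom. At an unadjusted p under 0.05 in edgeR there was 1, where 2.14% of all genes passed. It was Hgfac, a gene of low level with an average log2 CPM of -0.87. Its log2 fold change was 0.78 (edgeR unadjusted p = 0.0139, adjusted p = 0.9999). In the blocked fit 4 of the 68 genes had an unadjusted p under 0.05 and none was called. The share of all genes under 0.05 in that fit is not given here, so this count cannot be read as an excess. For the difference of KO effects between the fractions, 75 were tested and none was called by these tools, with 2 at an unadjusted p under 0.05 in edgeR, which 1.78% of all genes reached.

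Among the ligands of the interleukin-6 family, 2 of 6 tested were higher and 2 lower in GFP-positive cells, with a list median log2 fold change of 0.53. Clcf1, a further ligand that acts through Cntfr, had 3.46 ± 0.646 CPM in GFP-positive libraries (SD, n = 10), against 0.292 and 0.745 CPM in the KO and control GFP-negative libraries (log2 fold change 2.73, edgeR adjusted p = 7.44e-06). Its log2 fold change was 3.55 without the control and 2.19 without the KO GFP-negative library, and 311 of its exonic bases are shared with the model AC109138.7 on the same strand. Clcf1 was thus higher in all GFP-positive libraries, at a low level and with an uncertain size.

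Cntf itself had 0.679 CPM on average in GFP-positive and 1.49 CPM in GFP-negative libraries (log2 fold change -1.13, edgeR adjusted p = 0.0114), and with the replicate block its adjusted p was 0.0916. Of its 1073 exonic bases, 847 are shared with Zfp91 on the same strand, so reads there cannot be assigned with certainty. Ctf1, cardiotrophin, was called lower without the block (log2 fold change -1.04, edgeR adjusted p = 0.0190) and not with it (0.0845). Lif was at 0 to 7.54 estimated counts in GFP-positive libraries and at 1.16 and 0 in the KO and control GFP-negative libraries, and was not tested.

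Of the 8 interleukin-6 family receptors, 5 were higher and none lower in GFP-positive cells, where 30.1% of all genes were called higher. Cntfr, Lifr and Il6st, already reported above, were 3 of these 5 and enter the list median log2 fold change of 1.23. Il31ra, which binds interleukin-31 and signals with Osmr rather than Il6st, had 1.21 CPM in GFP-positive and 0.104 CPM in GFP-negative libraries, with few counts behind the GFP-negative value (edgeR adjusted p = 1.63e-06). Il27ra was the other, with 2.1 to 21.94 estimated counts in GFP-positive libraries and 1 and 0.98 in the KO and control GFP-negative libraries. Il31ra and Il27ra could thus pass the filter on low counts only through GFP-positive libraries. The count of 5 of 8 and the median are therefore no support for a rise across the family. The receptors Osmr, Il6ra and Il11ra1, each a partner of Il6st for other ligands, had log2 fold changes of -0.050, 0.54 and 0.029 and were not called. Osmr and Il6ra were low and unresolved, with 95% confidence intervals of -1.20 to 1.10 and -0.34 to 1.42, against -0.19 to 0.25 for Il11ra1.

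Among Jak kinases and Stat factors, 7 of 11 were higher and none lower in GFP-positive cells (median log2 fold change 0.51), beside 30.1% and 31.8% of all genes. In the blocked fit 6 were called, and Stat2 had an edgeR adjusted p of 0.0544. Jak1, a kinase bound by Il6st, had 220 ± 25.8 CPM in GFP-positive libraries (SD, n = 10), against 64.7 and 65.4 CPM in the KO and control GFP-negative libraries (log2 fold change 1.76, edgeR adjusted p = 3.15e-07). Stat3, the main transcription factor downstream of Il6st, had 140 ± 11.7 CPM in GFP-positive libraries (SD, n = 10), against 82.1 and 85.0 CPM in the KO and control GFP-negative libraries (log2 fold change 0.74, edgeR adjusted p = 7.43e-06). Jak3 rose at a low level (7.04 CPM in GFP-positive and 1.14 CPM in GFP-negative libraries), and 404 of its exonic bases are shared with Insl3. Stat5b and Jak2 also rose, by log2 fold changes of 0.64 and 0.28.

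The brakes and Stat3 targets went both ways, with 4 of 13 higher and 7 lower in GFP-positive cells (median log2 fold change -0.26). In the blocked fit Pias3 lost its call (edgeR adjusted p = 0.0563) and Socs2 gained one (0.0462). Socs3, a feedback inhibitor induced by Stat3, had 5.32 CPM in GFP-positive and 5.54 CPM in GFP-negative libraries (log2 fold change -0.059, edgeR adjusted p = 0.747). Socs1, another inhibitor of Jak kinases, and Socs5 rose by log2 fold changes of 1.17 and 0.46. Socs4, Socs6, Pias1 and Pias2, the last pair being SUMO ligases named as inhibitors of activated Stat, had log2 fold changes of -0.94, -0.86, -0.57 and -0.62.

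On the HGF side, 4 of 6 ligands, proteases and inhibitors were higher and none lower in GFP-positive cells (median log2 fold change 1.62), and 2 were called in the blocked fit, which called 55.6% of all genes. Spint2, an inhibitor of the proteases that activate HGF, had 16.7 ± 1.92 CPM in GFP-positive libraries (SD, n = 10), against 3.54 and 4.68 CPM in the KO and control GFP-negative libraries (log2 fold change 2.03, edgeR adjusted p = 2.68e-08). Hpn, a membrane protease able to activate HGF, had 5 to 16 estimated counts in GFP-positive libraries and 1 in each GFP-negative library. Mst1, the HGF-like ligand of Mst1r, had 2 to 12 estimated counts in GFP-positive libraries and 2 in each GFP-negative library. Hpn and Mst1 could thus pass the filter on low counts only through GFP-positive libraries. Hgfac and St14, not called, were low as well, with average log2 CPM of -0.84 and -1.18. The count and the median of this list are therefore no support for a rise across it.

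Of the Met family and co-receptors, 5 of 9 were higher and 2 lower in GFP-positive cells (median log2 fold change 0.77), Met itself being among the 5. Nrp1, a semaphorin receptor that can associate with Met, had 394 ± 30.3 CPM in GFP-positive libraries (SD, n = 10), against 58.1 and 55.8 CPM in the KO and control GFP-negative libraries (log2 fold change 2.79, edgeR adjusted p = 4.71e-11). Mst1r (Ron), the closest relative of Met, had 9.41 ± 0.895 CPM in GFP-positive libraries (SD, n = 10), against 1.35 and 1.32 CPM in the KO and control GFP-negative libraries (log2 fold change 2.81, edgeR adjusted p = 2.84e-09). The integrin subunit Itga6 and the heparan sulphate proteoglycan Sdc1 rose by log2 fold changes of 1.42 and 0.77. Plxnb1, a semaphorin receptor that can couple to Met, fell to 273 CPM in GFP-positive libraries, against 509 CPM in GFP-negative libraries (log2 fold change -0.90, edgeR adjusted p = 4.22e-07), and 257 of its exonic bases are shared with an antisense gene.

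The Met adaptors and effectors were spread around 0, with 8 of 22 higher, 9 lower and a median log2 fold change of 0.039. In the blocked fit 15 were called, without Cbl (edgeR adjusted p = 0.0675) and Src (0.159). Mapk3 (ERK1), a kinase at the end of the Ras cascade, had 196 CPM in GFP-positive and 75.7 CPM in GFP-negative libraries (log2 fold change 1.37, edgeR adjusted p = 2.60e-08). Pik3r1, a regulatory subunit of phosphoinositide 3-kinase, rose by a log2 fold change of 1.29, while its catalytic partner Pik3ca had a log2 fold change of -0.64. Grb2 and Sos2, an adaptor and an exchange factor upstream of Ras, both rose by log2 fold changes of 0.56. The adaptor Crkl and the phosphatase Ptpn11 (Shp2) had log2 fold changes of -0.54 and -0.71.

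All 4 Met brakes were called, 2 in each direction. Lrig1, a membrane protein that lowers Met and other receptor kinases, had 9.33 ± 1.71 CPM in GFP-positive libraries (SD, n = 10), against 52.3 and 46.4 CPM in the KO and control GFP-negative libraries (log2 fold change -2.40, edgeR adjusted p = 3.24e-08). It shares 144 exonic bases with Slc25a26 on the opposite strand, and the library kit did not keep strand. The phosphatase Ptprj rose by a log2 fold change of 0.99, and the phosphatase Ptpn2 had a log2 fold change of -0.84.

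**Figure D5:**
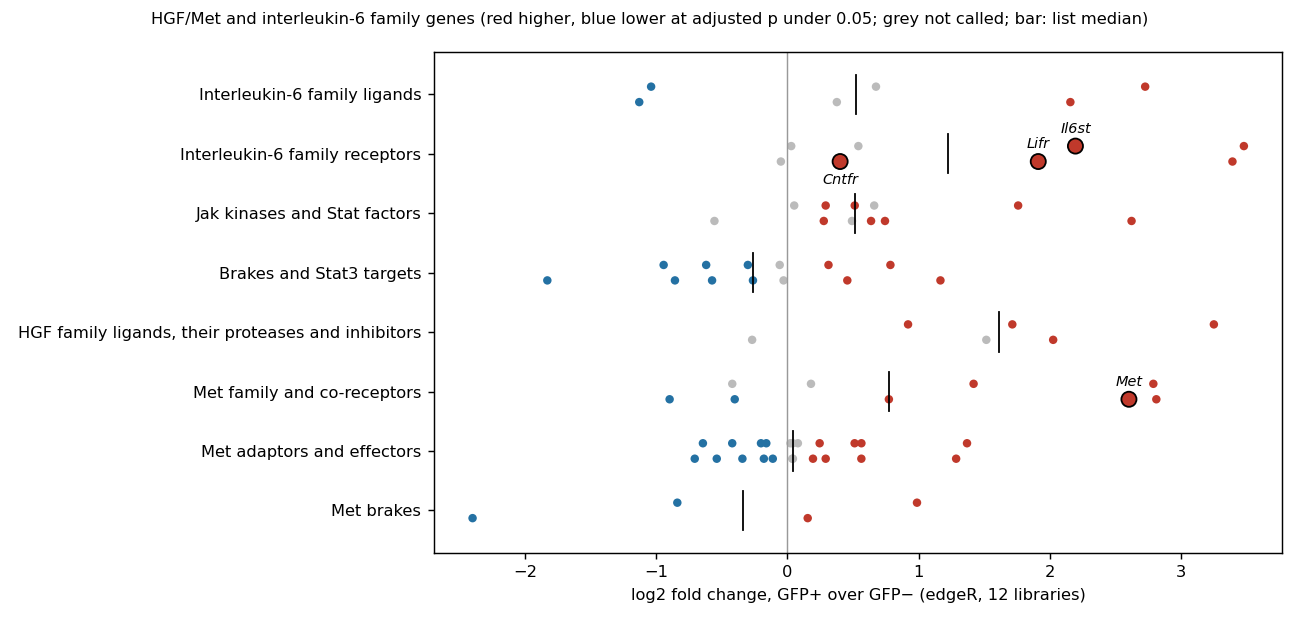
Log2 fold change of GFP-positive over GFP-negative cells (horizontal axis) for each tested gene of 8 pathway lists, with a bar at the list median and the receptor genes outlined and named. The interleukin-6 family receptors, with Cntfr, Lifr and Il6st among them, had a median of 1.23 and the Met adaptors and effectors of 0.039.

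The genes whose log2 CPM moved most like each receptor gene over the 12 libraries were found by the root mean square distance among 13514 genes, as a description. Hpca, a neuronal calcium sensor, lay closest to Met at 0.0664 log2 units, with 96.1 ± 2.31 CPM in KO and 94.8 ± 4.28 CPM in control GFP-positive cells (SD, n = 5 each). It had 16.7 and 17.0 CPM in the KO and control GFP-negative libraries, and Akap12 and Clstn2 followed at 0.0773 and 0.0804. Closest to Il6st were Pcdh10, a protocadherin (0.0683), Laptm4b (0.0771) and Gnb4 (0.0795).

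Closest to Lifr were Dgka, a diacylglycerol kinase (0.0776), Far2 (0.0780) and Lyrm9 (0.0789), of which Far2 shares 837 exonic bases with Ergic2. Dgka had 17.4 ± 1.78 CPM in KO and 18.2 ± 2.20 CPM in control GFP-positive cells (SD, n = 5 each), against 5.22 and 4.95 CPM in the KO and control GFP-negative libraries. Closest to Cntfr were Btbd10 (0.0439), Ccdc28b (0.0469) and Atp6v0b (0.0480). The 12 points share the sort, the libraries and their depth, and Met, Il6st, Lifr and Cntfr shared no exonic bases with an annotated neighbour.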

How the data were processed

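Estimated counts and TPM (transcripts-per-million values) per gene symbol were deposited by the authors as separate tables, and kallisto and mm10 are named in the submitters' processing notes, with no version. Of the estimated counts, 39.2% are whole, and they were rounded before testing. The deposited TPM columns sum to between 974800 and 1018240, so they had been rescaled, by steps not stated in the labels. Per the labels, libraries were polyA-selected, unstranded and read as single ends. Columns were matched by genotype, sort and replicate number, and 0 were left unmatched.

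The main test was the robust quasi-likelihood F-test of edgeR 4.0.16 (limma 3.58.1, R 4.3.3) after filterByExpr and TMM scaling, with p-values adjusted by Benjamini-Hochberg over the whole table and called under 0.05. The genotype fit used 10 GFP-positive libraries (17487 genes). The sort fit used all 12 libraries and a genotype term (19763 genes), and KO effects were compared through 4 group means. Scripts were tested on simulated data. Replicates correlated at r of 0.973 to 0.985, and no libraries were duplicates (chi-square over its degrees of freedom, 8.59 to 26.6). Binomial intervals and the floor of 3 counts cover counting error only.

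Same-numbered KO and control libraries correlated in their residuals from the group means at r = 0.381, 0.251, 0.179, 0.277 and 0.309, against at most 0.103 for others, so the replicate numbers were taken to pair the samples; the labels do not state what a number shares. The fit with this block is given beside the counts and calls it changes. Alternatives were other scaling, other filters, limma-voom, DESeq2 1.42.0, robust fitting off, log2 TPM in limma (pseudocount 1 or 0.1), each library left out and each genotype alone. For the TPM ratios, leaving out libraries was chosen after seeing the data.

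Genes named were the 5 members, called genes of the 8 pathway lists (up to 30 in order of p), the 3 genes nearest to each member over 12 libraries (prior count 2, mean log2 CPM of at least 1), Arhgap35 and Mnx1. The members and lists were chosen with earlier results of these data known. Grlf1 and further list genes were named after their values were seen, some named by the rule are only plotted, and 1 gene of the ligand list is not reported here. Positions and exon overlaps are from GENCODE M21 on GRCm38, and promoter windows from RefSeq.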

Additional observations from a re-analysis of the deposited data

Results flagged for a closer look

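Of 42 groups of 5 libraries checked for a library far from the rest, 6 had one by Dixon's criterion, which chance gives in about 5% of groups. In KO GFP-positive cells, replicate 3 stood apart for Met, at 93.6 CPM with the next at 82.9 CPM. The same library stood apart for Mnx1, at 315 CPM with the next at 248 CPM, and for the TPM ratio of Cntfr to Il6st, at 2.18 with the next at 2.24. Replicate 2 of KO GFP-positive cells stood apart for Cntfr, at 163.0 CPM with the next at 170.9 CPM. Replicate 1 of control GFP-positive cells stood apart for the TPM ratio of Cntfr to Lifr, at 12.2 with the next at 9.35, and for that of Met to Lifr, at 1.77 with the next at 1.41.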

How the results depend on the processing

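The higher levels of Met, Il6st, Lifr and Cntfr in GFP-positive cells kept their direction and their call under all 25 alternatives run, including the replicate block, with log2 fold changes of 2.29 to 2.69 for Met, 2.14 to 2.26 for Il6st, 1.66 to 2.04 for Lifr and 0.35 to 0.45 for Cntfr. No genotype effect or difference of effects on these 4 genes was called under any setting.

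The number of genes called between KO and control, 6, was 11 with DESeq2, 0 with limma on log2(TPM + 1) with and without a filter and on log2(TPM + 0.1), and 0 to 8 on leaving out a library; with the replicate block it was 5. The 5 genes with differing KO effects became 3 with DESeq2, 0 with limma-voom, 1 with the replicate block, 0 on log2(TPM + 1), 228 on log2(TPM + 1) without a filter, and 0 to 6 on leaving out a library. The cause was not tested.

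Small differences changed sign without being called. The genotype log2 fold change of Il6st was 0.000592 on log2(TPM + 1) with or without a filter and 0.000603 on log2(TPM + 0.1). On leaving out a library it ran from -0.040 to 0.013, that of Lifr from -0.057 to 0.059 and that of Met from -0.021 to 0.038. The difference of KO effects for Met was 0.0188 on log2(TPM + 1) with or without a filter and 0.0265 on log2(TPM + 0.1). The KO minus control difference in the TPM ratio ran from -0.154 to 0.912 for Cntfr to Lifr, from -0.184 to 0.134 for Il6st to Lifr and from -0.0125 to 0.1001 for Met to Lifr. Arhgap35 lost its call without a filter (edgeR adjusted p = 0.0717), with the replicate block, on the log2 TPM settings (limma adjusted p = 0.0778 to 0.160) and on leaving out any library but control replicate 5 (up to 0.141). The replicate block changed no call on the receptor genes. On log2(TPM + 1), low genes had smaller sort differences (Clcf1 1.27 and Mst1r 1.92 as log2 fold changes).

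Each genotype has 1 GFP-negative library, so leaving one out of the difference of effects gave no value. The depth leaves Hgf unresolved.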
